A study of Mus musculus with 7 samples.

Results

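The genes described here are 40 genes of DNA replication and mitosis, taken by symbol from the 31053 genes of the deposited count matrices. The list was given by name and not by a rule on measured values, but it was chosen with earlier results of these data known. All 40 were found, and all 40 passed the filter on low counts in each comparison. They were kept as a group of 18 genes that act around S phase and a group of 22 genes that act in G2 and mitosis. The levels were measured by droplet single-cell RNA sequencing (10x Chromium, 3′ ends) in 7 libraries of mouse mammary tumor cells sorted as CD24+ and negative for CD31, CD45 and Ter119.

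BRCA1-null tumors (2 libraries, replicates A and B) arose in mice with floxed Brca1 and Trp53 and a K14-Cre transgene, so both genes are lost in cells with K14 promoter activity. Neu tumors (2 libraries) arose in MMTV-Neu mice, in which the MMTV promoter drives the Neu oncogene. The MMTV-Neu strain, like MMTV-PyMT, had been bred with floxed FIP200 mice, and replicate A at least carried the floxed alleles without Cre. PyMT tumors (2 libraries) grew from FF99WT cells transplanted into the mammary gland of FVB/NJ females. FF99WT is a single line derived from an MMTV-PyMT tumor with floxed, intact FIP200 alleles and no Cre, so both PyMT libraries trace back to 1 line. The 4T1 library came from the BALB/c line 4T1, labelled with GFP by lentivirus and transplanted, and stands alone. The other 3 tumor types are labelled FVB/NJ, although the methods list the transgenic strains as FVB/N, and tumors were taken at about 1000 mm3. The animals are labelled adult. The transplant hosts were 6 to 8 weeks old, and the age of the mice with BRCA1-null and Neu tumors is not given here. The replicate letter marks the sequencing batch, and none is stated for 4T1. The study describes the libraries of a type as independent biological replicates, each prepared on its own chip, and does not list the animals.

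Before S phase, the MCM2-7 helicase is loaded on replication origins by Cdc6 and Cdt1, while E2F transcription factors, released from Rb family proteins, switch on the genes for replication factors and nucleotide synthesis. Later, the MuvB complex with B-Myb and FoxM1 switches on the genes of G2 and mitosis, which encode the cyclin B kinase, centromere proteins, spindle motors and the ubiquitin ligase cofactors that end mitosis. Transcripts of both groups are low in resting cells, which makes them standard markers of proliferating tumor cells.

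The files held 13745 barcodes, of which 12168 had at least 1000 unique molecular identifiers (UMIs), 500 genes and under 20% mitochondrial UMIs. BRCA1-null replicate A kept 245 cells and the other libraries 1751 to 2308. Total counts in kept cells ran from 5578911 UMIs in BRCA1-null replicate A to 37693300 in PyMT replicate B. A total of 213 kept cells had a barcode sequence found in more than 1 library, and a doublet caller marked 61 cells. Brca1 was at 9.68 and 2.81 counts per 1000000 (CPM) in BRCA1-null replicates A and B and at 0.276 to 1.35 CPM in the PyMT and Neu libraries. No source used here places the deleted Brca1 exons relative to the 3′ tags, so this level does not check the label. Epithelial markers were present in every library, and their summed level was lowest in BRCA1-null replicate A (1577 CPM against 5782 to 17304 CPM elsewhere). Most markers of other cell types were higher in the BRCA1-null libraries. Against PyMT and against Neu, 3 of 4 pericyte and 3 of 4 endothelial markers passed the test as higher, as did 3 and 4 of the 4 immune markers tested and 0 of the 1 erythroid marker tested. The pericyte marker Notch3 did not pass, with 2.51 CPM in BRCA1-null replicate A and 7.91 to 11.2 CPM in the PyMT and Neu libraries, where it made up most of the pericyte sum. All 7 mesenchymal markers passed as higher, with summed levels of 2012 and 4953 CPM against at most 50.9 CPM in the PyMT and Neu libraries. The study classed a mesenchymal cluster of BRCA1-null cells as tumor cells, from predicted copy number changes. Summed immune markers stood at 32.6 and 85.1 against 0.717 to 4.65 CPM, endothelial markers at 41.4 and 12.8 against 0.849 to 1.81 CPM, and pericyte markers at 19.9 and 149 against 8.45 to 11.3 CPM. Cd3e and Cspg4 were at 0 in several PyMT and Neu libraries, and 3 of 4 erythroid markers were at 0 in both BRCA1-null libraries. The part of these cells in the results below was not tested, except where values are given.

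To separate the number of proliferating cells from the level of the genes within them, each cell was thinned to 3000 UMIs and called proliferating when it held at least 3 UMIs of 40 other cell cycle genes, 20 of S phase and 20 of mitosis, none of which is among the 40 members. This class is a range cut from a score, not a cell type, and cells with 2 or 3 UMIs, next to the limit, made up 4.67% to 20.2% of a library. The study's own cell cycle classifier placed most cells in G1, and its calls were not compared with this class. In BRCA1-null tumors 33.8% of cells in replicate A (75 of 222) and 19.7% in replicate B (374 of 1901) were proliferating. In PyMT tumors the shares were 2.16% and 6.97%, and in Neu tumors 4.39% and 5.18%. In 4T1 the share was 27.2% (459 of 1685 cells, exact 95% interval 25.1% to 29.4%). Both BRCA1-null libraries and 4T1 therefore lay above all 4 PyMT and Neu libraries, with no overlap. The mean was 26.7% in BRCA1-null and 4.68% over PyMT and Neu libraries, a ratio of 5.72. An exact two-sided permutation test over these 6 libraries gave p = 0.0667, the smallest value that 15 arrangements allow, so this design cannot reach 0.05. Within replicates A the shares were 33.8% against 2.16% and 4.39%, and within replicates B 19.7% against 6.97% and 5.18%. Cells with no UMI of an epithelial marker were 19.8% and 7.47% of the thinned BRCA1-null cells in replicates A and B. Among BRCA1-null cells with an epithelial UMI, 33.7% and 20.5% were proliferating, and among those without one, 34.1% and 9.86%. A single UMI can come from free RNA. In replicate A, summed markers in proliferating and other cells were 840 and 2075 CPM (epithelial), 1434 and 2441 (mesenchymal) and 20.5 and 39.5 (immune). Endothelial markers stood at 67.5 and 23.5 CPM there, and pericyte markers at 30.5 and 12.7 CPM. The doublet caller marked 16 cells of replicate A, 6 of them proliferating, and without doublets the share of replicate A was 33.5%. The part of other cell types in the shares was not tested. The intervals cover counting error only, and proliferating cells held 1.32 to 1.74 times the median UMIs of the other cells before thinning.

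**Figure D1:**
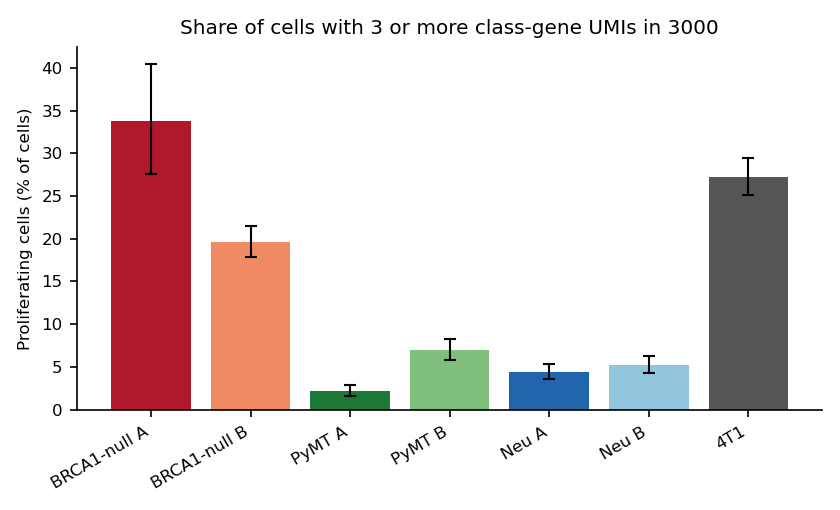
Share of cells called proliferating in each library (y axis, percent of cells with at least 3000 UMIs), with exact binomial 95% intervals as error bars. The BRCA1-null bars (33.8% and 19.7%) and the 4T1 bar (27.2%) stand above the PyMT and Neu bars, which lie between 2.16% and 6.97%.

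The first comparison asked how far the members differed between tumor types when all UMIs of a library were summed. At this level, fewer proliferating cells and less RNA per cell cannot be told apart. Against PyMT, 11 of 18 S phase members and 9 of 22 mitosis members were higher in BRCA1-null tumors at an adjusted p under 0.05 (edgeR quasi-likelihood test, adjusted by Benjamini-Hochberg over 13950 genes), beside 14.5% of all genes tested, and none was lower, beside 7.94%. Against Neu, 7 of 18 S phase and 5 of 22 mitosis members were higher, beside 16.3% of all genes, and none was lower, beside 12.8%. The mitosis count against Neu lies near the share of all genes. The median log2 fold change of BRCA1-null over PyMT was 1.91 for S phase members and 2.45 for mitosis members, beside 0.11 over all genes. Over Neu the medians were 1.42 and 2.05, beside 0.11. Leaving out 1 library kept every one of these medians above 0. The mitosis median over PyMT was 1.66 without BRCA1-null replicate A and 3.47 without PyMT replicate B, and that over Neu 1.10 without BRCA1-null replicate A. At an unadjusted p under 0.05, 34 and 24 of the 40 members were higher and none lower. The share of all genes at that threshold is not given here, so these counts cannot be set against it. Both BRCA1-null libraries lay above all PyMT and Neu libraries for 15 S phase and 18 mitosis members, beside 22.1% of all genes. These counts rested on single libraries. Of members higher than in PyMT, 20 in the full fit, leaving out PyMT replicate A gave 0, PyMT replicate B 1, Neu replicate A or B 11 each and BRCA1-null replicate A 12. Of members higher than in Neu, 12 in the full fit, leaving out Neu replicate A gave 0, Neu replicate B 1 and BRCA1-null replicate B 19. The order was the same within each batch. The median ratio of BRCA1-null to PyMT over the 40 members was 9.43 within replicates A and 2.31 within replicates B, and that of BRCA1-null to Neu was 5.11 and 1.75.

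**Figure D2:**
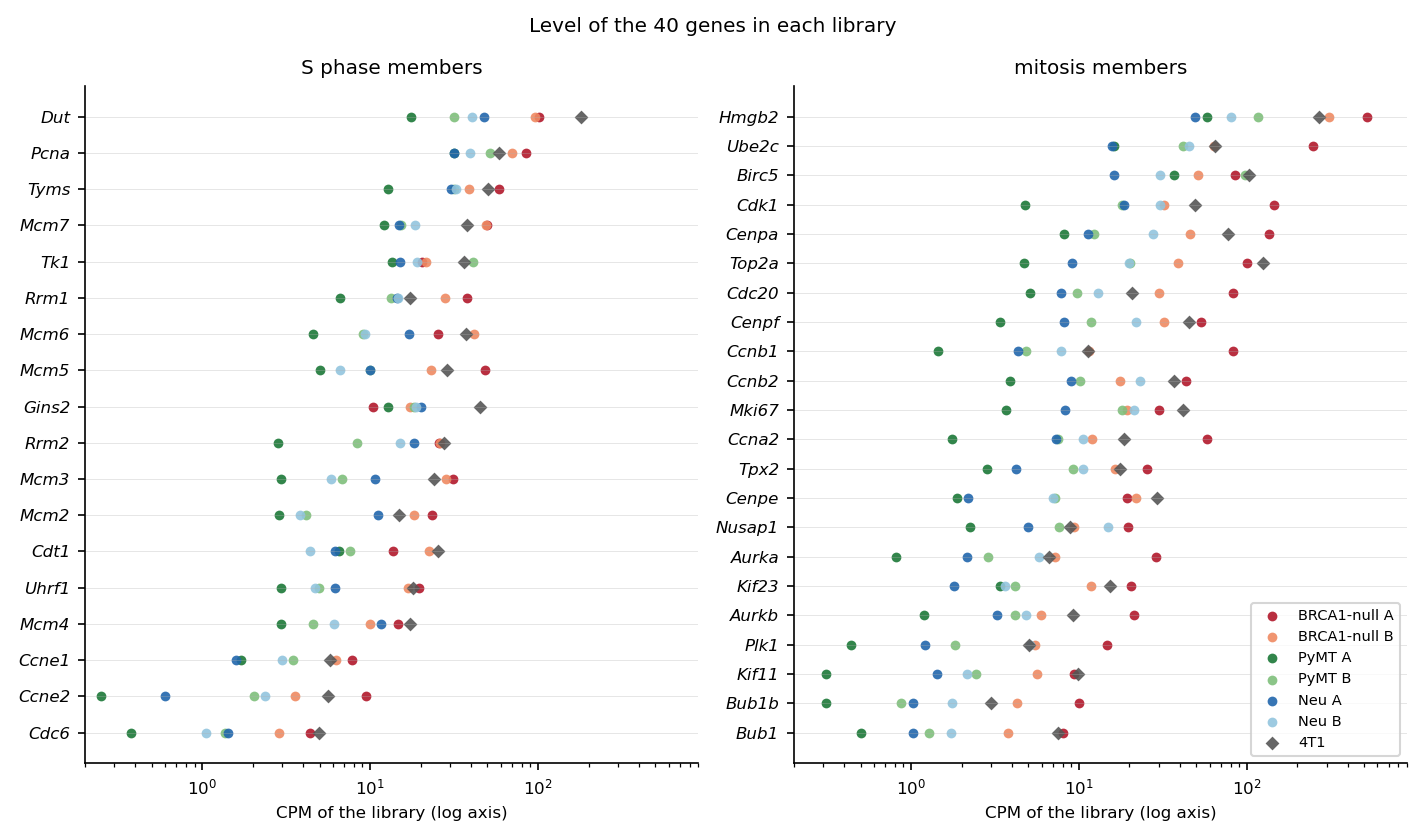
Level of each of the 18 S phase genes (left) and 22 mitosis genes (right) in each of the 7 libraries, in CPM of all kept cells on a log axis, sorted by the mean of the 6 replicated libraries. Red and orange points (BRCA1-null) lie to the right of green (PyMT) and blue (Neu) points for most genes, with Gins2, Tk1 and Birc5 among those where the colors mix.

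Among the S phase genes, the helicase subunit Mcm7 gave the smallest adjusted p in both comparisons. Mcm7 stood at 49.7 and 48.9 CPM in BRCA1-null replicates A and B, at 12.1 and 15.4 CPM in PyMT and at 14.9 and 18.6 CPM in Neu. The BRCA1-null pair was nearly level and far above the others, with a log2 fold change of 1.84 (SE 0.29, adjusted p = 0.0101) over PyMT and 1.56 (SE 0.29, adjusted p = 0.0110) over Neu. Mcm3, another helicase subunit, was at 31.2 and 28.3 CPM in BRCA1-null, 2.94 and 6.78 CPM in PyMT and 10.7 and 5.83 CPM in Neu, and rose by 2.60 (SE 0.51, adjusted p = 0.0178) over PyMT. Mcm5 rose by 2.10 (SE 0.52, adjusted p = 0.0260) over Neu, from 10.1 and 6.59 CPM to 48.5 and 23.2 CPM. Of the 6 helicase subunits, all 6 passed against PyMT and 3 (Mcm3, Mcm5 and Mcm7) against Neu. Dut, the dUTPase that keeps uracil out of DNA, was at 102 and 95.5 CPM in BRCA1-null. It was at 17.5 and 31.5 CPM in PyMT and 47.6 and 40.7 CPM in Neu, and rose by 2.01 (SE 0.35, adjusted p = 0.0130) over PyMT. Uhrf1, which guides maintenance DNA methylation to replicated DNA, was at 19.6 and 16.8 CPM in BRCA1-null against 2.94 and 4.99 CPM in PyMT and 6.19 and 4.71 CPM in Neu. Its log2 fold changes were 2.18 (SE 0.40, adjusted p = 0.0148) over PyMT and 1.74 (SE 0.39, adjusted p = 0.0197) over Neu. Cdt1, an origin licensing factor, rose by 1.78 (SE 0.39, adjusted p = 0.0181) over Neu. Gins2, a subunit of the GINS complex that joins the active helicase, and Tk1, thymidine kinase, did not follow the others. Gins2 was at 10.5 and 17.2 CPM in BRCA1-null, 12.8 and 18.2 CPM in PyMT and 20.0 and 18.7 CPM in Neu, and Tk1 at 20.5 and 21.4, 13.5 and 41.0, and 15.2 and 19.0 CPM. The groups overlapped for both genes against PyMT, with log2 fold changes of -0.15 (SE 0.36, adjusted p = 0.797) and -0.38 (SE 0.50, adjusted p = 0.624) by the same test. Gins2 and Tk1 were named after their values were seen.

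Among the mitosis genes, Hmgb2 had the highest UMI count of the members (3′ tags, not scaled by length) and passed against both other types. It encodes a high mobility group protein that binds and bends DNA. Hmgb2 was at 518 and 307 CPM in BRCA1-null, 58.1 and 117 CPM in PyMT and 49.4 and 80.4 CPM in Neu. Its log2 fold changes were 2.24 (SE 0.47, adjusted p = 0.0213) over PyMT and 2.67 (SE 0.48, adjusted p = 0.0107) over Neu. Cdc20, the activator of the anaphase-promoting complex, was at 83.0 and 29.9 CPM in BRCA1-null, 5.13 and 9.76 CPM in PyMT and 7.82 and 13.1 CPM in Neu. It rose by 2.91 (SE 0.60, adjusted p = 0.0203) over PyMT and by 2.43 (SE 0.59, adjusted p = 0.0250) over Neu, although the BRCA1-null libraries themselves lay far apart. Cenpa, the centromeric histone, rose by 3.15 (SE 0.66, adjusted p = 0.0207) and 2.22 (SE 0.63, adjusted p = 0.0394), and the call against Neu was lost with the replicate letter as a block (adjusted p = 0.0633). The checkpoint kinase Bub1b rose by 3.50 (SE 0.73, adjusted p = 0.0206) over PyMT. Kif23, a motor of the central spindle, rose by 2.54 (SE 0.49, adjusted p = 0.0129) over Neu. The fold change over PyMT reached 3.87 for Ccnb1, cyclin B1, the highest of the 40 members (SE 1.02, adjusted p = 0.0382). Ccnb1 stood at 82.9 CPM in the first BRCA1-null replicate (A) and 11.5 CPM in the second (B), against 1.44 and 4.84 CPM in PyMT and 4.34 and 7.81 CPM in Neu. Its replicates thus differed by more than replicate B differed from Neu, and without BRCA1-null replicate A the value over PyMT was lower, at 1.77. With the replicate letter as a block the Ccnb1 call was lost (3.85, adjusted p = 0.0738). Birc5, survivin of the chromosomal passenger complex, was at 85.1 and 51.4 CPM in BRCA1-null and 36.9 and 97.9 CPM in PyMT. These overlapped, with a log2 fold change of 0.01 (SE 0.54, adjusted p = 0.989). Mki67, the antigen Ki-67, was at 30.1 and 19.3 CPM in BRCA1-null, 3.69 and 18.2 CPM in PyMT and 8.25 and 21.2 CPM in Neu, and did not pass over PyMT (1.16, SE 0.77, adjusted p = 0.318). Ccnb1, Birc5 and Mki67 were named after their values were seen.

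Replicates differed more in the mitosis genes than in the S phase genes. In BRCA1-null tumors 21 of 22 mitosis genes were higher in replicate A, with a median ratio of 2.41 to replicate B. In PyMT and Neu tumors all 22 were higher in replicate B, with median ratios of 3.38 and 2.10 to replicate A. The S phase genes gave median ratios of 1.19 (A to B, BRCA1-null), 1.99 (B to A, PyMT) and 0.838 (B to A, Neu). The replicate in which most mitosis genes were higher also held more UMIs per kept cell in every type. For BRCA1-null the median was 18273 UMIs in replicate A against 11970 in replicate B. Replicate B had the higher median for PyMT (19410.5 against 9241 UMIs) and Neu (15642 against 8609 UMIs). The part of this depth in the replicate differences was not tested. With 2 libraries a type, a difference between batches and a difference between tumors cannot be told apart here.

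PyMT and Neu tumors were then compared with each other. No member passed in either direction, beside 7.50% of all genes higher and 9.38% lower in PyMT. The median log2 fold change of PyMT over Neu was -0.44 for S phase genes and -0.58 for mitosis genes, beside -0.06 over all genes, and 33 of 40 values were below 0. These medians rested on single libraries. Without PyMT replicate A they were -0.10 (S phase) and -0.10 (mitosis), with 22 of 40 values below 0, and without PyMT replicate B -1.23 and -1.89. The mitosis median was -0.06 without Neu replicate B, and the S phase median -0.26 without Neu replicate A. At an unadjusted p under 0.05, 1 member was higher and 3 lower, and DESeq2 called 1 higher and 1 lower. No share of all genes is given beside these counts. The widest values were those of Birc5 (1.53, SE 0.55, adjusted p = 0.102) and Rrm2, the small subunit of ribonucleotide reductase (-1.56, SE 0.51, adjusted p = 0.0796), both from the edgeR test.

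The single 4T1 library was placed on the same scale without a test. It lay above all 4 PyMT and Neu libraries for 17 of 18 S phase and 20 of 22 mitosis genes and below all 4 for none, beside 30.4% of all genes above and 31.0% below. Against the BRCA1-null pair, 7 S phase genes were higher in 4T1 than both, 5 fell between and 6 were lower than both, and for mitosis genes the counts were 5, 10 and 7. Dut reached 180 CPM in 4T1 (exact Poisson interval 174 to 185, counting error only), above every other library. Gins2 reached 45.4 CPM (42.7 to 48.3), against 10.5 to 20.0 CPM in the other 6 libraries. Top2a, the topoisomerase that untangles chromosomes, reached 124 CPM (120 to 129), against 101 and 38.9 CPM in BRCA1-null. In contrast, Ccnb1 was at 11.4 CPM in 4T1, level with BRCA1-null replicate B and far below replicate A.

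The second comparison took only proliferating cells, which asks about the level of each gene per proliferating cell. Between BRCA1-null and each of the other types the differences were mostly smaller here. The median log2 fold change of BRCA1-null over PyMT was 0.38 for S phase genes and 0.68 for mitosis genes, while the share of proliferating cells differed by 2.55 on the same scale. Over Neu the medians were -0.36 and 0.01, while the share differed by 2.48. The fold change was closer to 0 within proliferating cells than in the whole library for 37 of 40 genes against PyMT and for 33 of 40 against Neu. These cells were chosen in every library by the same limit on genes of the same pathways. Such a cut can by itself draw the levels of the members together, and its part in these counts was not tested. Against PyMT no member passed as higher, beside 4.77% of the 10256 genes tested, and 2 passed as lower, beside 3.09%. DESeq2 called 4 members higher, and 6 were higher at an unadjusted p under 0.05. Against Neu 1 member was higher, beside 7.30%, and 3 were lower, beside 6.91%. Between PyMT and Neu 1 was higher in PyMT, beside 3.08%, and 1 lower, beside 3.61%, while 10 were lower at an unadjusted p under 0.05. The PyMT over Neu medians were -0.60 for S phase and -0.87 for mitosis genes, farther from 0 than in whole libraries, and only 8 of 40 genes were closer to 0. The edgeR counts at an adjusted p under 0.05 are near the share of all genes that passed. No such share is given for the unadjusted counts or for those of DESeq2. For S phase genes the median over PyMT turned to -0.02 with a class limit of 5 UMIs and was 0.69 with a limit of 2. The mitosis median over Neu was -0.54 without BRCA1-null replicate A, 0.30 without BRCA1-null replicate B, -0.28 without Neu replicate A and 0.27 without Neu replicate B. The mitosis median over PyMT was 0.27 without BRCA1-null replicate A and 1.08 without PyMT replicate B, and the S phase median 0.14 without PyMT replicate A. Within replicates A the median ratio of BRCA1-null to Neu was 1.49 for mitosis genes, and within replicates B it was 0.531.

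**Figure D3:**
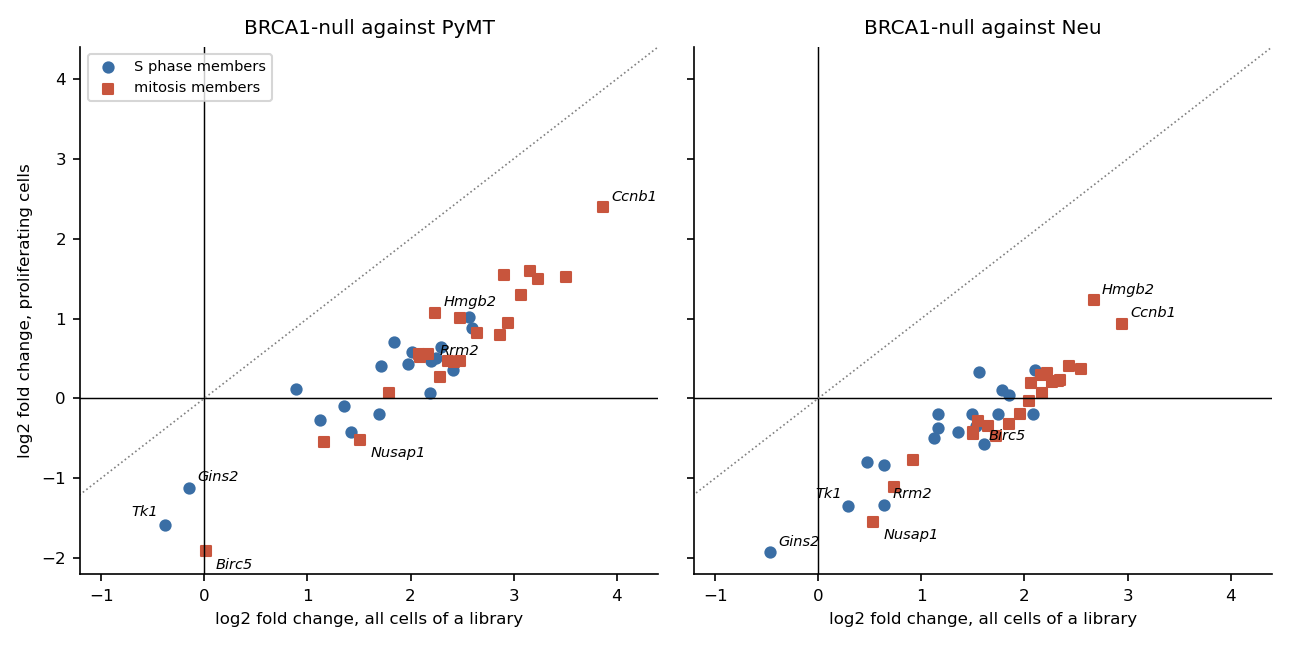
Log2 fold change of each member in the whole library (x axis) and within proliferating cells (y axis), for BRCA1-null against PyMT (left) and against Neu (right). Blue circles are S phase genes and red squares mitosis genes, the dotted line marks equal values, and most points lie below it. On the y axis the values run from -1.91 to 2.39 against PyMT, with Birc5, Tk1 and Gins2 the lowest. Against Neu they run from -1.93 to 1.23, with Gins2, Nusap1 and Tk1 the lowest.

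Birc5 stood out within proliferating cells. Its level was 204 and 172 CPM in BRCA1-null, 744 and 675 CPM in PyMT and 207 and 253 CPM in Neu, with 257 CPM in 4T1. Both PyMT libraries lay far above the 5 others. Birc5 was lower in BRCA1-null than in PyMT by a log2 fold change of -1.91 (SE 0.30, adjusted p = 0.0116) and higher in PyMT than in Neu by 1.62 (SE 0.30, adjusted p = 0.0198). Tk1 was at 47.9 and 68.8 CPM in BRCA1-null, 124 and 225 CPM in PyMT and 159 and 141 CPM in Neu. The BRCA1-null libraries were the lowest, with values of -1.58 (SE 0.38, adjusted p = 0.0406) against PyMT and -1.35 (SE 0.38, adjusted p = 0.0470) against Neu. Gins2 was at 15.2 and 34.7 CPM in BRCA1-null and 114 and 81.0 CPM in Neu, a log2 fold change of -1.93 (SE 0.44, adjusted p = 0.0226). Rrm2 was highest in Neu, at 231 and 127 CPM, against 61.5 and 79.4 CPM in BRCA1-null and 45.6 and 55.8 CPM in PyMT. It was lower in BRCA1-null than in Neu (-1.33, SE 0.37, adjusted p = 0.0472, and 0.0591 with the replicate letter as a block) and in PyMT than in Neu (-1.80, SE 0.39, adjusted p = 0.0316). Hmgb2 was the only member higher in BRCA1-null, against Neu, at 1120 and 860 CPM against 359 and 490 CPM, a log2 fold change of 1.23 (SE 0.33, adjusted p = 0.0422). Against PyMT its value of 1.07 did not pass (SE 0.33, adjusted p = 0.0908). When each of the 6 libraries was left out in turn, the call of Birc5 against PyMT was lost in 2 fits, those without PyMT replicate A or B, and each of the other 7 calls in 4, those without any 1 of the PyMT and Neu libraries, with no change of sign.

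Cells outside the class were summed as well, a comparison added after the data were seen. The median log2 fold changes of BRCA1-null there were 1.74 (S phase) and 1.79 (mitosis) over PyMT and 1.36 and 2.15 over Neu. Against PyMT the values of Tk1 (-1.50), Birc5 (-0.76) and Gins2 (-0.27) were below 0. The mitosis medians were 1.07 over PyMT and 1.41 over Neu without BRCA1-null replicate A, 2.34 over PyMT without PyMT replicate B and 2.96 over Neu without Neu replicate B. A total of 13 members passed against PyMT, 10 of 18 S phase and 3 of 22 mitosis genes, beside 14.6% of 13673 genes. Against Neu 15 passed, 10 of 18 S phase and 5 of 22 mitosis genes, beside 16.9%. Both mitosis counts lie near the share of all genes. Without PyMT replicate A or B 0 passed against PyMT, and without Neu replicates A and B in turn 0 and 2 against Neu. Leaving out Neu replicate A or B gave 7 against PyMT, and PyMT replicate A or B gave 5 against Neu. Levels were low, such as Mcm3 at 12.3 and 14.2 CPM in BRCA1-null against 1.94 and 2.49 CPM in PyMT. In thinned cells outside the class, 30.6% and 37.5% of BRCA1-null cells held more S phase than mitosis UMIs of the members, against 19.2% to 27.8% in PyMT and Neu and 41.0% in 4T1. Cells with more mitosis UMIs were 33.3% and 21.4% in BRCA1-null, against 8.97% to 19.2% in PyMT and Neu and 25.6% in 4T1. The part that cells just under the class limit and free RNA have in these values was not tested.

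The balance of the groups was read within single proliferating cells. In 6 of the 7 libraries more cells held more mitosis than S phase UMIs. The share with more S phase UMIs was 14.7% in BRCA1-null replicate A (exact 95% interval 7.56% to 24.7%) and 31.0% in replicate B (26.4% to 36.0%). It was at most 26.4% in PyMT and 34.2% in 4T1. In Neu it was 63.7% in replicate A (53.0% to 73.6%) and 32.7% in replicate B (23.7% to 42.7%), so the Neu replicates lay farther apart than any other pair. In BRCA1-null replicate A, 64.0% of proliferating cells held at least 10 mitosis UMIs among 3000, against 20.0% to 38.6% in the other 6 libraries. The summed levels ordered the libraries in part differently. Within proliferating cells the log2 ratio of summed S phase to summed mitosis CPM was -1.82 and -0.94 for the BRCA1-null pair. For PyMT it was -1.21 and -1.07, and for Neu -0.12 and -1.30, with the 4T1 value between those of PyMT and BRCA1-null replicate B. Without Hmgb2 the values were -1.35 and -0.28 for BRCA1-null, -0.91 and -0.73 for PyMT and 0.15 and -1.08 for Neu, and BRCA1-null replicate A and Neu replicate A remained the lowest and the highest. The shares with more S phase UMIs in BRCA1-null (14.7% and 31.0%) did not overlap those in Neu (32.7% and 63.7%), but the gap was smaller than the spread between the Neu replicates and was not tested, and the log2 ratios of these types overlapped. The part of free RNA in these shares was not tested.

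**Figure D4:**
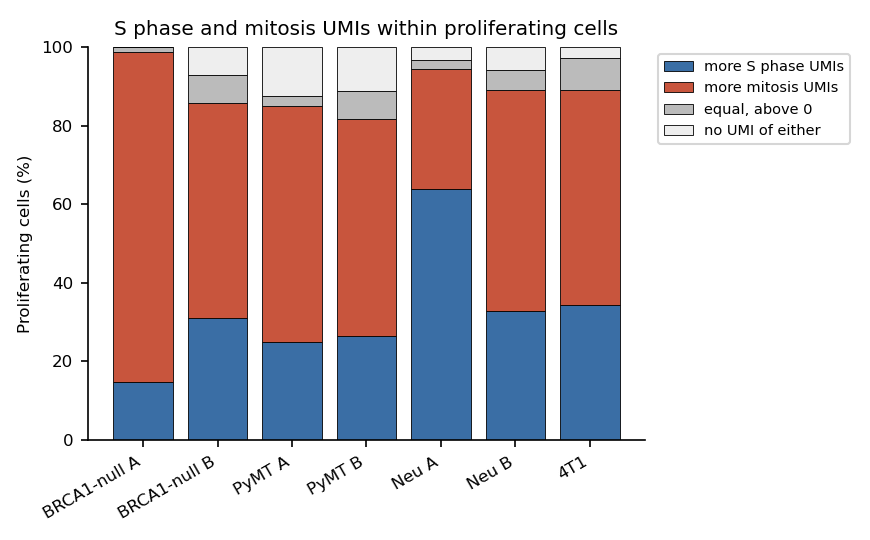
Proliferating cells of each library split by the members' UMIs in 3000 (y axis, percent of proliferating cells): more S phase UMIs (blue), more mitosis UMIs (red), equal counts above 0 (gray), or none of either (pale). Blue covers 14.7% in BRCA1-null replicate A and 63.7% in Neu replicate A, and at most 34.2% in the other 5 libraries.

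The groups also differed in how strictly their UMIs sat in proliferating cells. Taking the median over the 6 replicated libraries, a mitosis gene had 81.3% of its UMIs in proliferating cells and an S phase gene 53.4% (medians over the genes of each group). Proliferating cells held 3.25% to 41.5% of all UMIs in these libraries. They were chosen by genes of the same pathways, so a concentration of both groups there was built into the cut. How far the difference between the groups depends on the choice of class genes was not tested. Nusap1 (89.6%), a microtubule-associated spindle protein, the kinase Aurkb (88.6%) and cyclin A gene Ccna2 (88.0%) were the highest mitosis genes. Hmgb2 (50.0%), Ccnb2 (67.1%) and Cenpa (72.1%) were the lowest. Among S phase genes Cdc6 (78.6%), cyclin E2 gene Ccne2 (78.5%) and Rrm2 (74.2%) were the highest, and Gins2 (37.0%), the replication clamp Pcna (40.8%) and Mcm7 (41.8%) the lowest. Single libraries varied widely. Cdc6 ran from 0% to 86.7% on 235 UMIs in total and Ccne2 from 25.0% to 80.6% on 328. Pcna ran from 10.9% to 70.7% and Mcm7 from 17.6% to 70.2%. With a class limit of 2 UMIs the group medians were 87.3% and 65.7%, and with a limit of 5 they were 65.2% and 39.1%, with the same order.

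**Figure D5:**
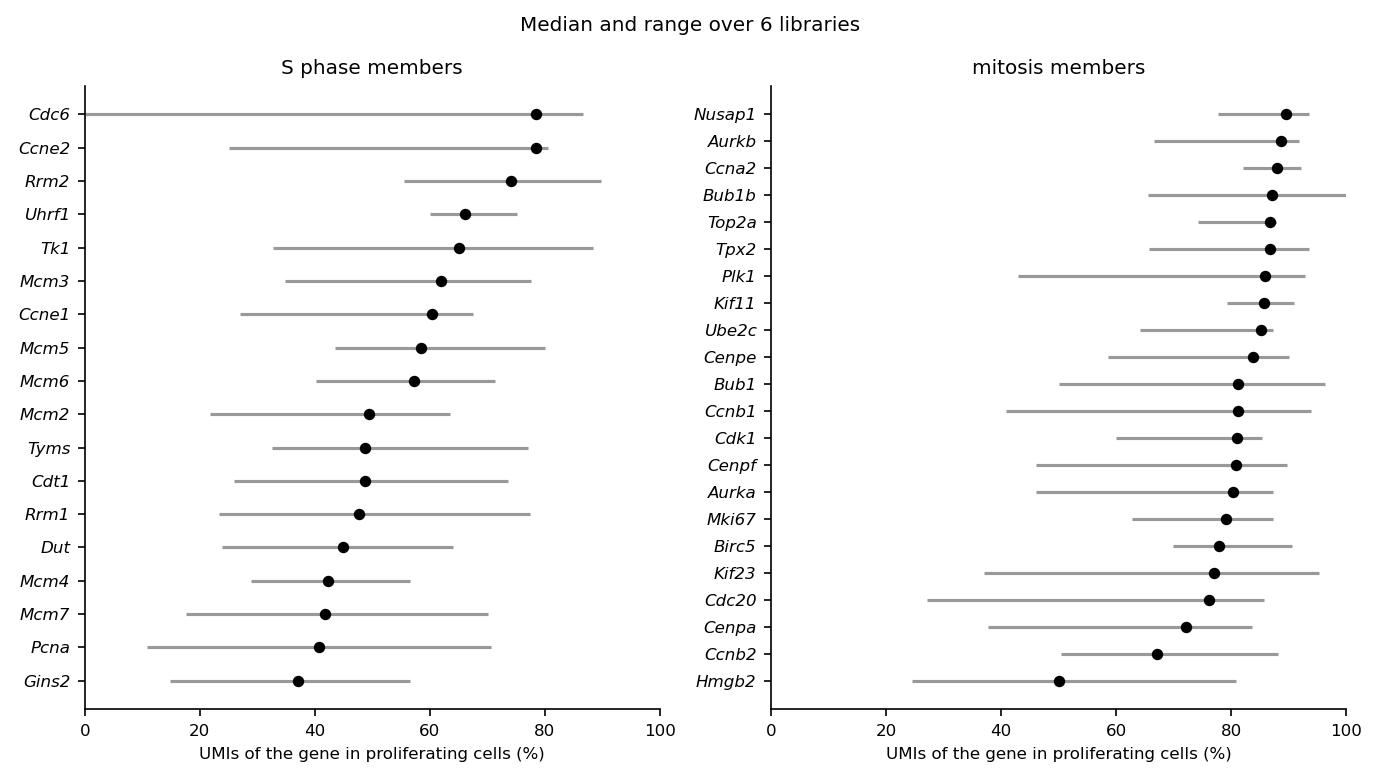
Share of each gene's UMIs that came from proliferating cells (x axis, percent), for S phase genes (left) and mitosis genes (right). Points are medians and lines the range over the 6 replicated libraries, and mitosis genes center on 81.3% against 53.4% for S phase genes.

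Genes of the same pathways outside the list were counted in whole libraries by the same test. Of the 20 S phase genes used for the class, 11 were higher in BRCA1-null than in PyMT and 9 than in Neu, and of the 20 mitosis genes 6 and 5, with none lower, beside 14.5% and 16.3% of all genes higher. Dtl, which targets Cdt1 for destruction, was at 28.3 and 13.9 CPM in BRCA1-null and 3.44 and 4.93 CPM in PyMT. Its log2 fold changes were 2.32 (SE 0.45, adjusted p = 0.0169) over PyMT and 2.11 (SE 0.44, adjusted p = 0.0162) over Neu. The mitotic kinesin gene Kif20a rose by 4.08 (SE 0.85, adjusted p = 0.0205) and 3.47 (SE 0.82, adjusted p = 0.0227). Of 26 regulators, 9 were higher and 2 lower against PyMT, and 13 higher and 3 lower against Neu. The lower counts are near the 7.94% and 12.8% of all genes that were lower. Skp2, which degrades the inhibitor p27, rose by 2.80 (SE 0.49, adjusted p = 0.0137) and 2.86 (SE 0.49, adjusted p = 0.0094), and Gmnn, geminin, the inhibitor of Cdt1, rose by 1.94 over Neu (SE 0.32, adjusted p = 0.00819). Rb1, whose product restrains E2F factors, was lower. Its level was 4.94 and 4.38 CPM in BRCA1-null against 17.6 and 14.3 CPM in PyMT and 13.4 and 13.9 CPM in Neu, with no overlap and a log2 fold change of -1.78 (SE 0.32, adjusted p = 0.0143) against PyMT. In 4T1 Rb1 was at 3.18 CPM, below every other library. Orc1, a subunit of the origin recognition complex, rose by 4.51 (SE 0.91, adjusted p = 0.0144) over Neu. Pole2, a subunit of DNA polymerase epsilon, rose by 2.32 (SE 0.50, adjusted p = 0.0222) over PyMT, and the kinetochore gene Nuf2 by 3.02 (SE 0.63, adjusted p = 0.0210). Cks2, a small partner of cyclin-dependent kinases, rose by 1.94 (SE 0.38, adjusted p = 0.0132) over Neu. Of 8 condensin genes, 4 were higher against PyMT, with Ncapd2 at 3.25 (SE 0.61, adjusted p = 0.0162) and Ncapd3 at 2.79 (SE 0.61, adjusted p = 0.0229), and 1, Ncapd3, against Neu (2.18, SE 0.59, adjusted p = 0.0344), the last count being near the 16.3% of all genes. Between PyMT and Neu, Pole2 was lower in PyMT (-2.56, SE 0.50, adjusted p = 0.0187), as was the Rb relative Rbl2 (-2.44, SE 0.51, adjusted p = 0.0224). Cdc25a, a phosphatase that activates cyclin-dependent kinases, and Ncapd2 passed as lower in PyMT (-1.80 and -2.19, adjusted p = 0.0439 and 0.0473) but not with the replicate letter as a block (adjusted p = 0.0637 and 0.0669).

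The start sites of the members were read for the sequence elements known from cell cycle promoters, since most members of each group were higher in both BRCA1-null libraries. RefSeq windows of 300 bases (GRCm38.p6, from 250 bases before to 50 after the start) were given for 15 S phase and 19 mitosis genes. All searches covered both strands. The E2F-type letters were TTTNNCG with G or C at each place marked N. The cell cycle genes homology region (CHR) was searched as TTTGAA and, for a form known from some mitotic genes, as TTCGAA. The NF-Y type was searched as CCAAT. E2F-type letters were present in 7 of 15 S phase genes (46.7%) and 3 of 19 mitosis genes (15.8%), beside 7.65% of the 27025 genes with a window. CHR letters were present in 2 S phase genes (13.3%) and 15 mitosis genes (78.9%), beside 21.7% of all genes. CCAAT was present in 9 S phase genes (60.0%) and 17 mitosis genes (89.5%), beside 41.1%. All 15 mitosis genes with CHR letters also had CCAAT, and 9.65% of all genes had both. A gene with more than 1 window was counted when any of its windows held the letters. The CHR and CCAAT letters of a gene may thus lie in different windows. A match is not a bound site. No window was given for Aurkb, Mcm4, Ccne2, Tpx2, Ccna2 and Gins2. The 250 bases before the start are shown for the genes with the smallest adjusted p in BRCA1-null against PyMT per group, leaving out windows with more than 30 annotated exon bases, which removed Dut and 1 of the Mcm7 windows. They run 5′ to 3′ on the strand of the gene, and capitals mark the letters above.
Mcm7 (chr5:138171267-138171516, - strand): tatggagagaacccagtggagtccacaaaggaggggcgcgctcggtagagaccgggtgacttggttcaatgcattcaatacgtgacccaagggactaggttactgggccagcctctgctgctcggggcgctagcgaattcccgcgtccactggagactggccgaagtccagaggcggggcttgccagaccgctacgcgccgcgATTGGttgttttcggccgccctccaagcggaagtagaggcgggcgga
Uhrf1 window 1 (chr17:56303087-56303336, + strand): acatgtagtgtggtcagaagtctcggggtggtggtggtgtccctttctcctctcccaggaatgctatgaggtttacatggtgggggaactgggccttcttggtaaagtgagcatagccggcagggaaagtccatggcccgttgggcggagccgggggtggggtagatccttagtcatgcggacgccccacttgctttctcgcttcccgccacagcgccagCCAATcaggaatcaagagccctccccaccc
Uhrf1 window 2 (chr17:56304063-56304312, + strand): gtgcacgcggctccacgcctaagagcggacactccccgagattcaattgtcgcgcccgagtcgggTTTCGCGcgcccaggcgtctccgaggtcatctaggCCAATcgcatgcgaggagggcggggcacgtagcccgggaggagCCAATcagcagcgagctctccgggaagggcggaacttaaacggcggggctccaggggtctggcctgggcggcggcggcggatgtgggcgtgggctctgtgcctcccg
Cdc20 (chr4:118437344-118437593, - strand): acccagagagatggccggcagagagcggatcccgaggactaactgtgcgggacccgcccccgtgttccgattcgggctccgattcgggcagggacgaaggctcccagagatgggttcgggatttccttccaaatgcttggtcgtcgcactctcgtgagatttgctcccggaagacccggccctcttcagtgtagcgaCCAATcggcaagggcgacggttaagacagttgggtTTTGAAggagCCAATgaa
Bub1b (chr2:118597961-118598210, + strand): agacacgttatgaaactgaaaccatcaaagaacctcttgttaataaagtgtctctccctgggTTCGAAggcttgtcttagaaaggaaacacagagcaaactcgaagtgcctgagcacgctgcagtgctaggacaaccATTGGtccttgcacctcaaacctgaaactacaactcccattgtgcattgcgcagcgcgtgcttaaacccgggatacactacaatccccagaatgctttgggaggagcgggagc
Window 2 of Uhrf1 held 1 E2F-type match and 2 CCAAT matches, while window 1 and the Mcm7 window held 1 CCAAT match each. Mcm7 was nonetheless counted above among the genes with E2F-type and with CHR letters, and those matches lie outside the bases shown. Cdc20 held 1 CHR match and 2 CCAAT matches, and Bub1b 1 of each.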

How the data were processed

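The deposited values are raw counts of UMIs for each gene in each cell, made by the authors with Cell Ranger 2.2.0 or 3.0.2 and STAR on mm10, per the submitters' processing notes. No source used here says how strand and multimapping reads were counted. For this reason 13 members that overlap a gene of the other strand, 7 that overlap one of the same strand, and Pcna, which has a named pseudogene, may share reads. The pooled matrix of the series was not used.

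The 40 members and all other lists were chosen with earlier results of these data known. Cells with at least 1000 UMIs, 500 genes and under 20% mitochondrial UMIs were kept. For the class, cells under 3000 UMIs (694) were left out and the others thinned without replacement (seed 1). Counts were summed per library over all cells, class cells or other cells, and tested with edgeR 4.0.16 (R 4.3.3, filterByExpr, TMM, glmQLFit and glmQLFTest) in 1 fit over the 6 libraries of 3 tumor types, giving 3 pairwise contrasts with adjusted p under 0.05 as the call. Levels are CPM scaled by TMM, with 4T1 on the same scale and untested, and marker levels and Brca1 are plain CPM. The fit was tested on simulated data. DESeq2 1.42.0 was an alternative. Doublets were called with scanpy 1.11.5 (Scrublet) and removed only as an alternative. Per comparison and group, up to 4 members with the smallest adjusted p under 0.05 were named, and up to 2 genes of each other pathway list. Genes named otherwise are said to be so. The authors sequenced the second replicates together as a second batch, which makes the letters pair the libraries. The correlation of the replicate differences was 0.02 for BRCA1-null and PyMT, 0.10 for BRCA1-null and Neu and 0.20 for PyMT and Neu.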

Additional observations from a re-analysis of the deposited data

How the results depend on the processing

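With 2 libraries a type, leaving out 1 library let a lone library stand for its type, assumed to vary like the others. Counts are of the 40 members at an adjusted p under 0.05. The cause of each change below was not tested. In whole libraries, members higher in BRCA1-null than in PyMT (20) were 34 with no filter on low counts, and than in Neu (12) were 23 by DESeq2 and 31 with no filter. Leaving out a library gave 0 to 26 and 0 to 19. For PyMT against Neu (0 higher, 0 lower) DESeq2 gave 1 and 1 and no filter 1 and 3. In proliferating cells, members higher in BRCA1-null than in PyMT (0) were 4 by DESeq2, 4 with no filter and 2 with a class limit of 2 UMIs, and 0 to 8 without a library. Members lower (2) were 1 with a limit of 2 or 5 UMIs and 0 to 3 without a library. Against Neu, the member higher (1) was lost (0) with a limit of 5 or another random seed, and the count was 0 to 2 without a library. Members lower (3) were 5 with no filter, 1 with a limit of 2, 1 under 10% mitochondrial UMIs and 1 with doublets removed, and 0 to 8 without a library. Of PyMT against Neu, the member higher (1) gave 0 to 1 without a library, and the member lower (1) became 8 with no filter and 0 with a limit of 5, with no thinning or with another seed, and 0 to 10 without a library. Outside the class, members higher in BRCA1-null than in PyMT (13) were 0 to 16 without a library, and 1 was lower by DESeq2, with no filter or with the replicate block. Members higher than in Neu (15) were 24 with no filter and 0 to 13 without a library. For PyMT against Neu there (0 and 0) DESeq2 gave 1 higher and 2 lower, no filter 3 and 1, and leaving out a library 0 to 1 each. Birc5 in whole libraries, near 0 against PyMT, turned to -0.054 with no filter, -0.051 with the study's cell filters and -0.011 with every barcode, and ran from -0.56 to 0.87 without a library. Gins2 ran from -0.68 to 0.11 and Tk1 from -0.9999 to 0.62. With the replicate letter as a block, 16 members were higher than in PyMT and 10 than in Neu in whole libraries, and beyond the losses named above it changed no call of a named gene. The difference in the share of proliferating cells, 22.1 percentage points, stayed between 14.5 and 28.2 points over 10 alternatives.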

Other observations

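Birc5, higher in PyMT within proliferating cells, and Tk1 lie on chromosome 11 (GRCm38), Tk1 at 117815526 to 117826092 and Birc5 at 117849251 to 117855743, with 23158 bases between them. The genes within 250000 bases of them were looked at after these values were seen. The window held 19 annotated genes, of which 11 passed the filter on low counts, Tk1 and Birc5 among them. Of these 11, 4 were higher in PyMT than in Neu and 0 lower, beside 7.50% and 9.38% of all genes. In all cells of a library, Pgs1 (log2 fold change of PyMT over Neu 2.33, SE 0.34, adjusted p = 0.00869), Tnrc6c (1.75, SE 0.26, adjusted p = 0.00888), Tmc6 (1.34, SE 0.35, adjusted p = 0.0423) and Gm11724 (2.18, SE 0.57, adjusted p = 0.0427) were higher in PyMT by the edgeR test. Syngr2, Tmc8, Afmid, Socs3 and Tha1 did not pass, with values of 0.77, 1.80, 0.65, 0.31 and -0.64. Among the same genes Pgs1, Tmc6, Tnrc6c, Gm11724 and Syngr2 were also lower in BRCA1-null than in PyMT (-1.97, -1.69, -0.95, -6.01 and -2.41). Their SEs were 0.34, 0.35, 0.25, 0.796 and 0.27, in the same order. Their adjusted p values by the edgeR test were 0.0126, 0.0206, 0.0392, 0.0066 and 0.00415. Of all genes, 7.94% were lower in this comparison. Tmc8, Tk1, Afmid and Tha1 had values below 0 and did not pass. Birc5 (0.01) and Socs3 (1.55) had values above 0 and did not pass either.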
